A study of Mus musculus with 14 samples.

Results

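The comparison described here is that of open chromatin in 4T1 cells, a mouse mammary tumor cell line, after 12 h of hypoxia and in normoxia. A peak of the 12 h list was called gained when it shared no base with any normoxia peak, a normoxia peak was called lost when it shared no base with any 12 h peak, and all other peaks were called shared. The 12 h list held 81732 peaks, of which 28268 were gained and 53464 shared, and the normoxia list held 60070 peaks, of which 5366 were lost and 54704 shared. The same comparison was made on the 20000 peaks with the highest fold enrichment of each list. These 141802 peaks were part of 463526 peaks in the 7 lists of the series.

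Bulk ATAC-seq, in which a transposase inserts adapters into accessible DNA, was performed on fixed 4T1 cells in 7 groups of 2 samples. The 12 h cells were kept at 1% oxygen and 5% carbon dioxide and were fixed directly after collection, with no antibody. The control cells carry the label of a normoxic culture with no oxygen level, and the treatment text of their samples repeats the low-oxygen protocol. The study's own account places its control culture below the oxygen of air and above that of the hypoxic cells, so normoxia is used here as a label. Both groups are 1 unmodified cell line, and nothing in the labels says whether the 2 samples of a group came from separate cultures.

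Each list was called on the pooled reads of both samples of its group. No value has a replicate error, so no test between conditions was possible, and intervals are exact (Clopper-Pearson for shares, Poisson for reads) at 95% and cover counting error only. In a bulk measurement, a site that is less open in all cells and a site that is open in fewer cells cannot be told apart.

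When oxygen falls, prolyl hydroxylases of the Egln family no longer mark the alpha subunits of hypoxia-inducible factor (HIF) for destruction by the Vhl ubiquitin ligase. The stabilized subunit pairs with Arnt, binds DNA at a short core sequence and raises the transcription of genes for glycolysis, acid export, blood vessel growth and collagen modification. Many oxygen-dependent histone and DNA demethylases belong to the same enzyme superfamily as the prolyl hydroxylases, and ATAC-seq peaks mark promoters and distal elements where factors such as HIF, AP-1 and the insulator protein CTCF bind.

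The sequences at the peaks that were strongest in 1 list and absent from the other are shown first, since the motif counts given later are counts of such matches. Each is 201 bases around the summit on the plus strand of mm9 (NCBIM37). Capitals mark matches on either strand. They are TGANTCA, which is bound by AP-1, the CCAAT box of the factor NFY, and the RUNX word TGTGGTT. The core of the HIF binding site was searched as ACGTG and also with a G as its first base, that of CEBP factors as TTGCNNAA, and that of CTCF as its consensus. The gained peak with the third highest fold enrichment lay in a UTR exon and is given by position only.
Gained, nearest Trib2, chr12:15414492-15414692: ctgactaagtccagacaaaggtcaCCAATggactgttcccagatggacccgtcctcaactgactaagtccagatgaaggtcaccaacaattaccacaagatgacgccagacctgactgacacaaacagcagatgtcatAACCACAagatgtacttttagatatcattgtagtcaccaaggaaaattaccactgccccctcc
Gained, nearest Rpl21-ps10, chr3:38057198-38057398: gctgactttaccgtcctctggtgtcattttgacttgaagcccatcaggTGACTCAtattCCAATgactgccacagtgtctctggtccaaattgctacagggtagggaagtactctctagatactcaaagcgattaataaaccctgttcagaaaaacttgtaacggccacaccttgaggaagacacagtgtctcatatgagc
Gained, nearest Tmem130, chr5:145478152-145478352: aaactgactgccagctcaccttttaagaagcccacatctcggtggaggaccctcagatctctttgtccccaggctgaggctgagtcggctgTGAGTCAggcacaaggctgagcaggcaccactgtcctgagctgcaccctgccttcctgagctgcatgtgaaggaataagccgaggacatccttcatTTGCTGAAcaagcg
Lost, nearest Dapk1, chr13:60539643-60539843: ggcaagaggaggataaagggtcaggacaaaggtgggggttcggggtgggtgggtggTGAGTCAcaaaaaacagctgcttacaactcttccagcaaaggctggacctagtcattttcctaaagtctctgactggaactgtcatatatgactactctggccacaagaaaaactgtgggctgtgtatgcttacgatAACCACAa
Lost, in an intron of Homer1, chr13:94132946-94133146: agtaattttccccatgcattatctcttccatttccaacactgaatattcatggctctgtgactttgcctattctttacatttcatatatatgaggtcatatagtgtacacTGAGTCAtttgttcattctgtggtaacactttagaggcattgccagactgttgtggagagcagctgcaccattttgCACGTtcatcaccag
Lost, in an intron of Mbd4, chr6:115797074-115797274: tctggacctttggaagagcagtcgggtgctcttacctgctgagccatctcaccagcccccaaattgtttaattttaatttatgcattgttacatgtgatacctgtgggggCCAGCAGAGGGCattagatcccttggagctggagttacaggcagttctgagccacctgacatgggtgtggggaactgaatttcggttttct
An AP-1 match stood 9 bp from the summit in the peak near Tmem130 and 52 bp from it in the peak near Rpl21-ps10. AP-1 matches were also found in the lost peaks near Dapk1 and in Homer1, 44 and 10 bp from the summit. The lost peak in Mbd4 held a CTCF match 10 bp from its summit.

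At the level of whole lists, gained peaks were far more numerous than lost ones. Gained peaks made up 34.6% of the 12 h list (34.3 to 34.9%), and lost peaks made up 8.93% of the normoxia list (8.71 to 9.16%). Most gained peaks were weak. Their median fold enrichment, which divides the reads at the summit by those of the local background, was 3.89, against 7.48 in shared 12 h peaks. The median gained summit held 14 reads and the median shared summit 38, and the median widths were 295 and 583 bp. Lost peaks were weak as well, with a median fold enrichment of 4.15 and 7 reads at the summit, against 6.59 and 18 reads in shared normoxia peaks.

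The depth of the libraries differed in the same direction as the numbers of peaks. Summit reads were recovered from the deposited statistics for all peaks of both lists. The genome background of the 12 h list was 2.34 reads per summit window and that of normoxia 0.926 reads, a ratio of 2.53. In shared pairs the 12 h summit held 1.90 times the reads of the normoxia summit (median, quartiles 1.56 and 2.42). The lowest number of reads at a listed summit was 8 at 12 h and 5 in normoxia. After division by this median ratio, gained summits corresponded to a median of 7.37 reads at normoxia depth, 2230 of them (7.89%) fell under 5 reads, and 1438 (5.09%) reached the normoxia median of 16 reads. The same scaling of lost summits to 12 h depth gave a median of 13.3 reads, with 0 under 8 reads and 326 (6.08%) at or above the 12 h median of 25 reads. The ratio of 1.90 comes from peaks called in both lists. Scaling by the larger background ratio of 2.53 would put gained summits at fewer reads, with more of them under 5. It would put lost summits at more reads. The part of depth in the number of gained peaks was not tested.

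Gained and lost peaks were nearly absent among the strongest peaks. None of the 1000 strongest 12 h peaks was gained. Gained peaks were 4 of the next 4000, 18 of the next 5000 (0.360%) and 192 of the next 10000 (1.92%). Their share was larger at each lower rank step up to 74.8% between ranks 70000 and 80000. None of the 10000 strongest normoxia peaks was lost, and of the next 10000 13 were lost (0.130%). By reads, 83.8% of 12 h peaks with 8 to 10 reads were gained, against 0.645% of those with more than 50.

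**Figure D1:**
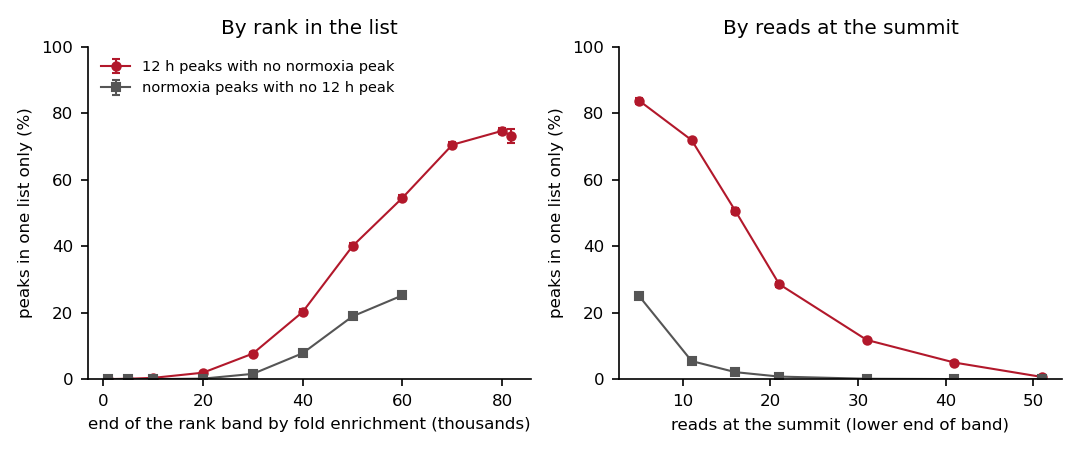
Share of peaks of each list with no overlapping peak in the other list (y axis, percent), by rank of fold enrichment and by reads at the summit (x axes), for the 12 h list (gained) and the normoxia list (lost). Bars are exact 95% intervals. The gained share was 0% in the 1000 strongest 12 h peaks and 74.8% between ranks 70000 and 80000.

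Restricting both lists to their 20000 strongest peaks made the comparison symmetric. Of these, 4365 12 h peaks were gained (21.8%, 21.3 to 22.4%) and 4356 normoxia peaks were lost (21.8%, 21.2 to 22.4%). Nearly all of them overlapped a weaker peak of the full other list, with 4151 of the gained and 4343 of the lost peaks doing so. Only 214 gained and 13 lost peaks among the strongest had no counterpart anywhere in the other list. Equal list lengths fix equal numbers of peaks, so the near equality of both shares is partly set by the rule. The fold enrichment at the limit was 8.79 at 12 h and 7.89 in normoxia, just inside and just outside the 20000 peaks alike.

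The location of peaks separated shared from unshared peaks in the same way in both directions. A peak was placed at a promoter when it touched the 1 kb on either side of an annotated start of a protein-coding gene, and otherwise by its summit. Promoters held 7.48% of gained peaks (2115) and 22.4% of shared 12 h peaks, and 6.95% of lost peaks (373) and 22.8% of shared normoxia peaks. Introns held 39.8% of gained and 41.2% of lost peaks, and intergenic DNA 49.7% and 48.5%. Seen by place, 15.0% of 12 h promoter peaks were gained, against 40.4% of exonic, 38.3% of intronic and 38.8% of intergenic peaks. Lost peaks were 2.91% of normoxia promoter peaks and 10.4 to 12.2% of the peaks elsewhere. Shared promoter peaks held a median of 57 reads at 12 h and shared peaks elsewhere 34, and the part of peak strength in these values was not tested.

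Among the 20000 strongest peaks this pattern by place was kept at 12 h and was weaker in normoxia. Gained peaks were 11.3% of strong 12 h promoter peaks and 25.9 to 27.4% of strong peaks elsewhere. Lost peaks were 19.5% of strong normoxia promoter peaks and 22.1 to 23.9% elsewhere. Promoters accordingly held 15.5% of the strong gained peaks and 29.4% of the strong lost peaks, against 33.8% and 33.7% of the strong shared ones. Of the 214 strong gained peaks with no normoxia peak at all, 127 were intergenic, 70 intronic, 7 exonic and 10 at promoters. All 13 strong lost peaks with no 12 h peak were intronic (6) or intergenic (7).

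**Figure D2:**
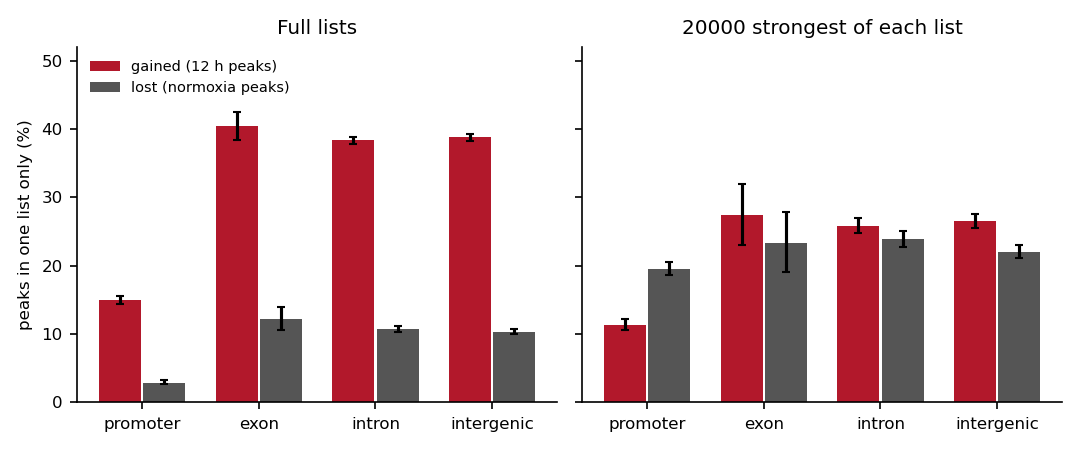
Share of peaks gained at 12 h and lost from normoxia (y axis, percent) by location (x axis) in the full lists and in the 20000 strongest peaks of each. Bars are exact 95% intervals, and in the full lists 15.0% of 12 h promoter peaks were gained against 38.3 to 40.4% in other places.

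The median distance of non-promoter peaks to the nearest start was 35089 bp in gained and 29864 bp in shared 12 h peaks, and 27055 bp in lost and 29747 bp in shared normoxia peaks. Among the 20000 strongest 12 h peaks the medians were nearly equal, with 35657 bp in gained and 35666 bp in shared peaks. Gained peaks had a median gap of 9652 bp to the nearest normoxia peak, and 3277 of them (11.6%) lay within 1 kb of one. Lost peaks had a median gap of 7204 bp to the nearest 12 h peak, and 866 (16.1%) lay within 1 kb. Gained shares ranged from 31.2% on chromosome 17 to 36.5% on chromosome 1 and lost shares from 7.53% on chromosome 7 to 9.88% on chromosome 8. The Y chromosome had 6 peaks at 12 h, all gained, and none in normoxia.

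The 10 gained peaks with the highest fold enrichment were distal, except 1 at a promoter and 1 in a UTR exon. The strongest stood 408999 bp from the start of Trib2, which encodes a pseudokinase of the tribbles family (chr12:15414260-15414875), with 13.9-fold enrichment and 50 reads (37.1 to 65.9). It ranked 2329 in the 12 h list. The peak nearest to the pseudogene Rpl21-ps10 (chr3:38057042-38057553) reached 13.2-fold with 47 reads. A UTR exon of Gdpd5, a glycerophosphodiester phosphodiesterase gene, held the next peak, with 13.2-fold enrichment and 43 reads (chr7:106608733-106609234). The other distal peaks of this group were nearest to Tmem130, Jmjd1c, Tbc1d21, Rps6ka3, Eya1 and A430110N23Rik, with 12.0- to 12.8-fold enrichment and 39 to 50 reads. Scaled to normoxia depth by the ratio of 1.90, these 10 peaks corresponded to 20.5 to 26.3 reads.

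The strongest gained promoter peak was that of Parm1, which encodes a mucin-like membrane protein. Its summit lay 7 bp from the annotated start (chr5:91946435-91946883), with 12.5-fold enrichment and 44 reads (32.0 to 59.1), and the nearest normoxia peak was 48811 bp away. The next promoter peaks were those of Pld1, a phospholipase (10.4-fold, 39 reads), and of the start shared by Brap and Acad10 (10.2-fold, 33 reads). Nfia, a transcription factor of the nuclear factor I family, had a gained peak at one of its starts (9.90-fold, 37 reads, chr4:97577491-97577946), while another promoter peak of the gene was present in both lists. Gained promoter peaks of 8.98- to 9.88-fold followed at Zfp738, Xpa, which encodes a DNA repair protein, Oas1a, an interferon-induced synthetase, Nacc2, Jdp2, a repressor of the AP-1 family, and Rfpl4. The promoter peaks of Pld1 and Rfpl4 had their summits 1368 and 1270 bp from the start and only reached into the promoter window.

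Lost peaks had fewer reads. The strongest stood 163565 bp from the start of Dapk1, a death-associated protein kinase (chr13:60539610-60539872), with 9.35-fold enrichment and 17 reads (9.90 to 27.2). Intronic lost peaks in Homer1, a scaffold gene of synapses, in Mbd4, a DNA glycosylase, and in Clgn, a chaperone, each had 8.83-fold enrichment and 16 reads. The further lost peaks of the 10 strongest were nearest to Gm5751, Nhs, Ebf1, Notch1, Chl1 and Zfp612, with 8.31- to 8.83-fold enrichment and 15 or 16 reads. Scaled to 12 h depth by the ratio of 1.90, these 10 peaks corresponded to 28.5 to 32.3 reads, more than the 12 h median of 25. The remaining 3 of the 13 strong normoxia peaks with no 12 h peak were nearest to Gm1045, Kirrel3 and Ccdc102a (7.94- to 8.25-fold).

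The strongest lost promoter peaks were those of Zfp384 (7.79-fold, 14 reads), Msl3 (7.27-fold, 13 reads) and Npdc1 (6.86-fold, 13 reads). The Npdc1 peak ended 166 bp from a 12 h peak. Spp1, which encodes the secreted phosphoprotein osteopontin, had a normoxia peak 32 bp from its start (chr5:104863899-104864301) with 6.29-fold enrichment and 17 reads (9.90 to 27.2), and the nearest 12 h peak was 1485 bp away. The lost promoter peaks of Got1l1, Efr3a, Abat, Smyd3, Ccdc38 and Iars had 6.23- to 6.44-fold enrichment and 11 to 13 reads.

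The 5 other hypoxia lists were compared with the same normoxia list, so that a gained peak found in any of them is again a peak absent from normoxia. Of the gained peaks, 15.6% overlapped a 6 h peak, 45.6% a 24 h, 31.7% a 36 h, 47.9% a 48 h and 34.2% a 72 h peak. Over all 12 h peaks these shares were 55.2%, 76.1%, 67.3%, 77.4% and 66.4%. No other list held 30.4% of gained peaks and 11.9% of all 12 h peaks, and all 5 held 5.90% and 46.6%. Strength and recurrence went together: no other list held 42.8% of gained peaks with a −log10 q under 5, against 2.17% of those at 10 or more. Of the lost peaks, 55.7% were in no other list, against 6.96% of all normoxia peaks, and 5.83 to 27.2% of them were in any given one. The strongest gained peak, near Trib2, was in all 5 other lists at 3.76-fold (6 h), 8.88-fold (24 h), 9.63-fold (36 h), 8.47-fold (48 h) and 8.52-fold (72 h). The Parm1 promoter was likewise in all 5, at 6.44-, 7.03-, 4.97-, 10.7- and 7.89-fold in the same order. The gained peaks near Rps6ka3 and Eya1 were in 3 of the 5 lists. The lost peak near Dapk1 was only in the 24 h list (4.22-fold), whereas the lost peaks near Notch1 and at the Spp1 promoter were in all 5 other lists and missing at 12 h alone.

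**Figure D3:**
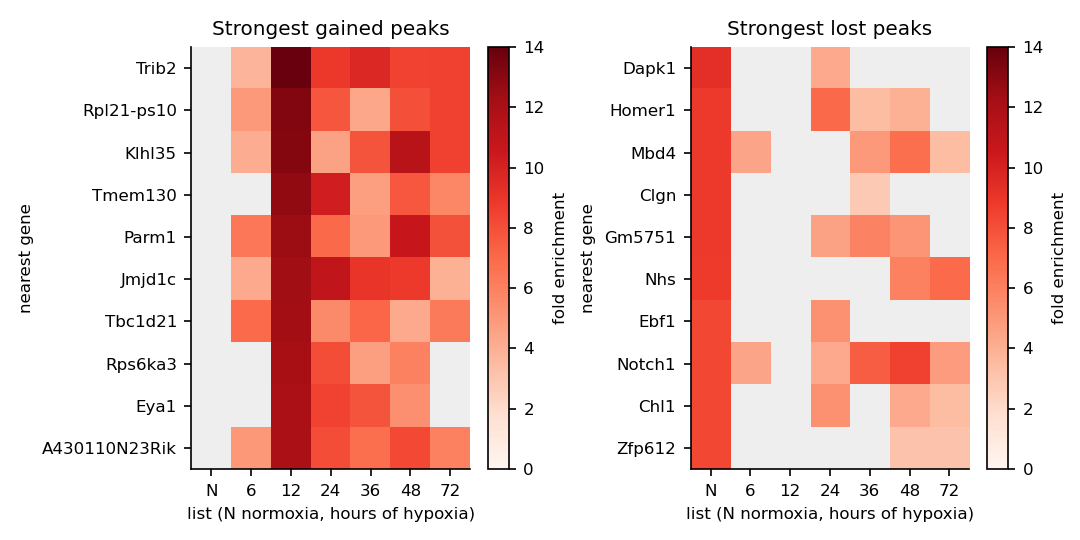
Fold enrichment (color) of the strongest gained and lost peaks (rows, named by the gene with the nearest start, which is Klhl35 for the peak in Gdpd5) in each of the 7 lists (columns). A grey cell means no overlapping peak in that list, and the gained peak near Trib2 appears in all 6 hypoxia lists.

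Sequence around the summits differed between gained, lost and shared peaks. Matches were counted within 100 bp of the summit on both strands, for HIF, AP-1, NFY, RUNX, CEBP and CTCF as above and for TEAD (GGAATG), KLF/SP (GGGCGG), FOX (GTAAACA), GRHL (AACCNGTT), CRE (TGACGTCA), ETS (CCGGAAGT), the E-box CACGTG, which overlaps the HIF core, and the NFI consensus. The HIF core was found in 18.9% of gained and 28.6% of shared 12 h peaks, and in 25.3% of all 12 h peaks. Outside promoters these shares were 17.6% and 21.7%, and at promoters 35.4% and 52.7%. Outside promoters the HIF share of gained peaks was below that of shared peaks at each level of strength: 17.2% against 19.7% for a −log10 q under 5, 18.5% against 20.9% for 5 to 10, and 16.9% against 22.2% for 10 or more. In lost peaks the HIF core was found in 20.4%, against 28.7% in shared and 28.0% in all normoxia peaks.

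AP-1 matches were less frequent in lost peaks than in gained or shared ones. They were found in 39.0% of gained, 42.7% of shared and 41.4% of all 12 h peaks, and in 25.1% of lost, 40.6% of shared and 39.3% of all normoxia peaks. Among the 20000 strongest the order turned at 12 h, with 54.2% of gained and 44.5% of shared peaks, and was kept in normoxia, with 38.8% of lost and 44.0% of shared peaks. Promoters held 15.5% of these strong gained and 33.8% of these strong shared 12 h peaks. Outside promoters the shares by strength, from weak to strong, were 36.0%, 44.7% and 52.9% in gained peaks and 33.8%, 41.0% and 57.2% in shared 12 h peaks. Gained peaks were thus slightly above shared peaks in the lower 2 levels and below them in the highest. Lost peaks outside promoters held AP-1 matches in 25.4%, 28.5% and 26.7% by strength, against 39.5%, 45.7% and 57.7% of shared normoxia peaks. The highest level held 30 lost peaks. Among the 214 strong gained peaks with no normoxia peak, 55.6% held an AP-1 match and 15.4% a HIF core, against 46.6% and 32.7% of all strong 12 h peaks. Promoters held 4.67% of the 214 peaks and 29.8% of all strong 12 h peaks. The motif shares of these strong sets were not split by place, so the part of place in them was not tested.

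CTCF matches were more frequent in lost peaks. They were found in 6.88% of lost peaks, in 2.46% of shared and in 2.85% of all normoxia peaks. Outside promoters the lost shares by strength were 6.23%, 10.6% and 16.7%, against 4.14%, 4.09% and 1.36% of shared peaks. Of the 13 strong lost peaks with no 12 h peak, 4 held a CTCF match, namely those in Mbd4 and near Gm5751, Chl1 and Zfp612, against 1.15% of all strong normoxia peaks. In gained peaks CTCF matches were found in 2.99%, against 2.58% of shared and 2.72% of all 12 h peaks. At equal strength outside promoters, gained peaks had fewer CTCF matches than shared ones in the lower 2 levels, 3.24% against 7.91% and 3.30% against 5.84%, and 1.48% against 1.60% in the highest. Over all strong 12 h peaks the share was 0.675%, and of the 214 strong gained peaks with no normoxia peak 0 held a match, a count too near that share to be read as a difference. KLF/SP matches, which are frequent at promoters, were found in 5.73% of gained and 17.7% of shared 12 h peaks, and in 5.24% of lost and 17.3% of shared normoxia peaks. CEBP matches were found in 9.20% of gained and 7.70% of shared peaks. NFY, RUNX and TEAD matches differed by less than 2 percentage points between gained and shared peaks.

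The 53464 shared 12 h peaks were each paired with the strongest normoxia peak that they overlapped. The summits of a pair were a median of 38 bp apart, and 85.0% lay within 100 bp. The median log2 ratio of fold enrichment (12 h over normoxia) was 0.06, with quartiles of −0.16 and 0.33, and 57.3% of pairs were higher at 12 h. By reads over genome background the median log2 ratio of the same pairs was −0.41, so the direction depends on the measure. A ratio above 1 on the log2 scale was found in 1040 pairs and one below −1 in 278 pairs. None of the 15635 pairs in which both peaks were among the 20000 strongest passed either limit. Such peaks had at least 8.79-fold enrichment at 12 h and 7.89-fold in normoxia, and at most 23.5-fold. This choice leaves little room for a ratio beyond either limit. The 12 h peak was the wider one in 82.5% of pairs.

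Shared promoters and shared distal sites differed slightly. The median log2 ratio of fold enrichment was 0.00 in 11969 promoter pairs and 0.09 in 41495 other pairs, a difference of −0.08. By reads over genome background the medians were −0.52 and −0.38. The read ratio was 1.77 at promoters and 1.95 elsewhere. The local background was higher at promoters, with medians of 5.52 reads at 12 h and 2.66 in normoxia, against 3.36 and 1.38 elsewhere. There is no replicate spread against which so small a difference could be read.

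**Figure D4:**
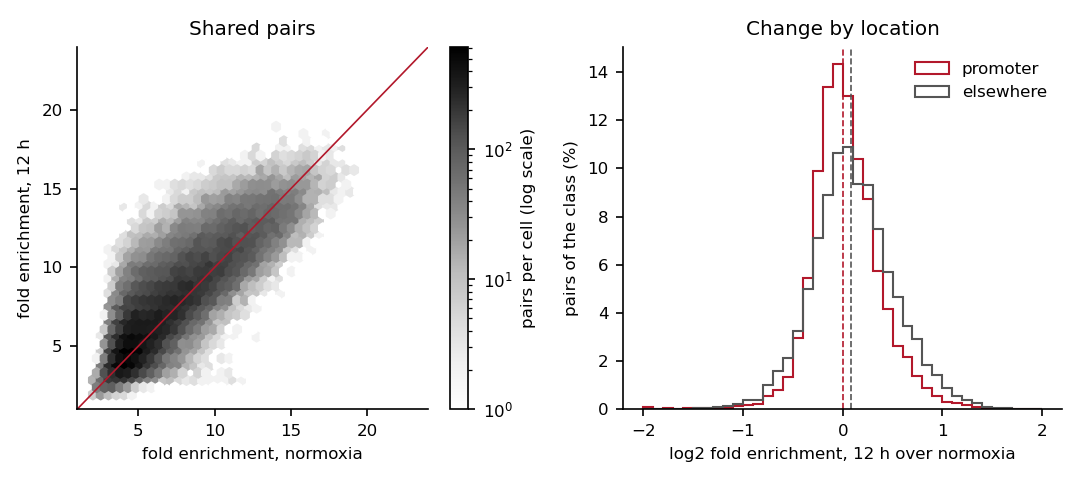
Distribution of the log2 ratio of fold enrichment (12 h over normoxia, x axis) over shared pairs at promoters and elsewhere (y axis, percent of pairs), with values beyond 2 in either direction placed in the end bins. The medians were 0.00 at promoters and 0.09 elsewhere.

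Among pairs strong in both lists, the 10 with the highest log2 ratios included a peak near Cds2, a lipid synthesis gene, with 15.4-fold enrichment at 12 h (53 reads) and 7.94-fold in normoxia (16 reads), a log2 ratio of 0.96. The promoter of Il1r1, the receptor for interleukin 1, had a log2 ratio of 0.95, from 8.77-fold and 19 reads in normoxia to 16.9-fold and 79 reads at 12 h. An intron of Runx2, a transcription factor of bone formation, held a peak with 16.7-fold enrichment at 12 h and 9.01-fold in normoxia (0.89). Further pairs of this group were nearest to Setbp1, Cadm1, Carns1, Mettl16, Nbas and Apbb2, with log2 ratios of 0.87 to 0.93. In all 10 the reads at 12 h were at least 2.79 times those in normoxia, against a median ratio of 1.90 and a background ratio of 2.53. Fold enrichment is computed from these reads, so a high read ratio is largely set by how the pairs were chosen.

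The lowest log2 ratio was in an intron of Fam19a1, with 10.2-fold enrichment at 12 h (45 reads) and 17.1-fold in normoxia (49 reads), a log2 ratio of −0.74. A peak 25763 bp from the start of Nrg1, which encodes the growth factor neuregulin, had 9.64-fold enrichment at 12 h and 15.6-fold in normoxia (−0.70). Promoter pairs at Dnaja2, a co-chaperone (−0.70), Dem1 (−0.63), Nfkbib, an inhibitor of NF-kappa-B (−0.63), and Bckdhb (−0.60) were in this group. So were pairs in introns of St6galnac3 (−0.69), Ehf, an epithelial ETS factor (−0.63), and Mtap7d1 (−0.63), and a peak near Grem1, a secreted antagonist of bone morphogenetic proteins (−0.64). The reads of these 10 pairs at 12 h were 0.841 to 1.37 times those in normoxia, which is likewise largely set by their choice.

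The annotation held 22380 protein-coding genes, and 11292 of them had a promoter peak in both lists and 10109 in neither. A promoter peak at 12 h only was found for 852 genes, 6.94% of the 12271 genes with one in either list (6.50 to 7.41%). A promoter peak in normoxia only was found for 127 genes (1.03%, 0.864 to 1.23%). Most of these peaks were weak, with a median of 15 reads for the 852 genes and 8 reads for the 127 genes, and 146 and 2 of them reached a −log10 q of 10. When both lists were limited to their 20000 strongest peaks, the order turned, with 704 genes at 12 h only and 1312 in normoxia only.

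The strongest of these promoter peaks were mostly broad peaks whose edge crossed the window, rather than new sites at a start. Angptl6, an angiopoietin-like factor (13.4-fold, 133 reads), and Ltc4s, the synthase of leukotriene C4 (13.2-fold, 99 reads), led the genes with a promoter peak at 12 h only. Their summits lay 1468 and 1644 bp from the start, and the same 12 h peaks overlapped normoxia peaks that ended outside the window. The same held for Ebf2, Fgl1, Olfr639, Mtfp1, 2900092C05Rik and Tm6sf1, with summits 1218 to 1425 bp from the start. Parm1 and Acad10 were the 2 of the first 10 whose peak itself was absent from normoxia, as was the case for 808 of the 852 genes. In normoxia only, Dub1a (8.46-fold), Gm1979, Nid1 and E030010A14Rik were such edge cases as well, with summits 1083 to 1277 bp from the start. The peaks of Got1l1, Abat, Spp1, 2600006K01Rik, Cercam and Gzmb were themselves absent at 12 h, with 2600006K01Rik and Cercam sharing 1 peak.

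Lists of genes of hypoxia and cell identity, 15 with 175 genes in all, were then examined. A promoter peak was present in both lists for 134 genes, at 12 h only for 10, in normoxia only for 0 and in neither for 31. The 10 genes were 6.94% of the 144 list genes with a promoter peak in either list, the same share as over all genes, so their number is no result about the lists. The median log2 ratio of the 134 genes was −0.05, against 0.00 over all genes (quartiles −0.16 and 0.21). Of the peaks nearest to list genes, 31.6% were gained and 6.84% lost, against 34.6% and 8.93% of all peaks. Of the 10 genes, 9 had between 11 and 24 reads at the 12 h summit.

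Of 10 HIF subunits and oxygen sensors, 8 had a promoter peak in both lists. Among the hydroxylases that sense oxygen, Egln1 stood at 11.4-fold at 12 h against 6.88-fold in normoxia (0.72 on the log2 scale), Egln3 at 8.80-fold against 5.88-fold (0.58), Hif1an at 14.5-fold against 11.5-fold (0.33) and Egln2 at 9.86-fold against 11.1-fold (−0.17). At Hif1an the summit held 49 reads over a background of 2.44 at 12 h and 26 over 1.34 in normoxia. At such low backgrounds the ratio depends on the added 1. The background was low at Egln1 as well, with 61 reads over 4.46 at 12 h and 18 over 1.76 in normoxia. The ubiquitin ligase gene Vhl had 14.4-fold against 9.31-fold (0.63), with 59 reads over 3.16 and 26 over 1.90. Arnt had the highest value of the list in both (15.1 and 15.8), and Hif1a, the oxygen-labile subunit, had 13.7 and 15.6. Epas1 and Arnt2 had no promoter peak in either list. Of 25 peaks nearest to Egln3, 8 were gained (32.0%, near the 34.6% of all 12 h peaks), the strongest 79974 bp from the start with 8.68-fold enrichment and 28 reads.

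Glucose uptake and glycolysis genes were open in both conditions, with 19 of 20 promoters in both lists, a median log2 ratio of −0.06 and 26.3% of genes higher at 12 h. Pdk1, which restrains pyruvate entry into mitochondria, had the highest value (13.3 and 13.6), and Tpi1 the lowest at 12 h (5.05, and 5.21 in normoxia). Aldoc was higher at 12 h (8.38 against 5.19), with 27 reads over a background of 2.34 against 9 over 0.926. Gpi1 was higher as well (8.13 against 5.58). Ldha, which makes lactate, was lower (6.68 against 9.60, −0.52), and Slc2a1, the main glucose transporter of many cells, had 6.36 and 7.53.

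The acid-handling list held 2 of the 10 genes. Car2, a carbonic anhydrase of the cytosol, had a gained promoter peak of 5.65-fold with 19 reads, and Car9, the membrane carbonic anhydrase induced by HIF, one of 4.79-fold with 15 reads. Their summits lay 75 and 9 bp from a start, and both peaks held a HIF core within 100 bp of the summit. Such a match is frequent at promoter peaks, as given above. Of the other genes at 12 h only, P4ha2, Col1a1 and Pecam1 had a match at their strongest promoter peak. Pgf, Fosb, Kdm5b, Nfix and Pitx1 had none there. Slc16a1, a lactate transporter, was higher at 12 h (9.35 against 6.53), and Slc4a7, a bicarbonate transporter and the highest of the list, was lower (13.0 against 17.9).

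Of 13 angiogenic factors and receptors, 8 had a promoter peak in both lists. Pgf, placental growth factor, had one at 12 h only, with 4.49-fold enrichment and 14 reads at chr12:86518715-86519105. Vegfa, the central growth factor of blood vessels, had 7.04 at 12 h and 5.07 in normoxia (0.47), and Vegfb 3.59 and 5.71 (−0.67, with 11 and 10 reads). Angpt2 was highest (11.0 and 11.5) and Angptl4 lowest in normoxia (3.82 and 3.80). Vegfc, a growth factor of lymph vessels, had 7.25 at its promoter and 6.43 in normoxia, and 10 of its 24 nearest 12 h peaks were gained (41.7%, against 34.6% of all), the strongest 123831 bp from the start with 9.58-fold enrichment and 31 reads. A gained peak 22178 bp from the start of Flt1, a VEGF receptor, reached 9.89-fold with 34 reads (chr5:148559522-148560113) and was in all 5 other hypoxia lists.

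In the collagen-modifying list, 8 of 11 promoters were in both lists and P4ha2, a prolyl hydroxylase subunit for collagen, was at 12 h only with 6.29-fold enrichment and 20 reads. P4hb was highest (12.3 and 11.9) and Loxl3 lowest (4.46 and 4.67), and Plod2, a lysyl hydroxylase, had 5.10 and 7.29 (−0.52). All 10 mitophagy, mTOR and other HIF target genes had a promoter peak in both, with a median of −0.12. Tfrc, the transferrin receptor, had 13.9 and 13.5, Ankrd37 10.9 and 15.3, and Bhlhe40, the lowest, 4.82 and 5.03. Of 13 oxygen-dependent demethylases, 10 were in both and Kdm5b, an H3K4 demethylase, was at 12 h only with the lowest value of the list (2.61, 14 reads). Kdm4b was highest (12.9 and 14.4), and Tet3 had 6.72 and 7.84.

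AP-1 subunit promoters had the lowest median of the 15 lists (−0.20 over 8 genes). Fosb was at 12 h only, with 3.16-fold enrichment and 34 reads, the most reads of the 10 genes. Atf3 was highest (9.23 and 10.4) and Junb lowest (2.43 and 3.77, −0.63). All 13 genes of the unfolded protein and amino acid stress list were in both, with Eif2ak3, a sensor kinase, highest (11.9 and 15.9) and Atf6 lowest (5.95 and 6.22). All 12 cell cycle genes were in both, with a median of −0.13, from Ccnb1 (15.3 and 17.7) to Ccnd1 (3.80 and 2.96).

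Promoters of most epithelial, some mesenchymal and some fibroblast markers were open in both conditions, so promoter peaks were not limited to epithelial markers. Epithelial promoters were in both lists for 13 of 15 genes, among them Cdh1 (8.40 and 8.01) and Epcam (8.44 and 8.26), and Krt5 and Cldn7 had no promoter peak. Krt14 was highest at 12 h (8.68, and 6.07 in normoxia), Krt19 highest in normoxia (7.49 and 10.4), Krt18 lowest (4.42 and 3.08), and Grhl2, a factor of epithelial identity, had 8.52 and 5.38, which are values of different peaks that do not overlap. Of 10 mesenchymal genes 6 were in both, with Snai1 at 11.6 and 9.04, Fn1 at 9.61 and 10.2 and Vim lowest at 5.22 and 4.83. Cdh2, Zeb1, Twist2 and Acta2 had no promoter peak in either list. Of 7 immune markers only Csf1r had a promoter peak (13.0 and 7.83, with 62 and 17 reads), and markers such as Ptprc, Cd3e, Itgam, Lyz2 and Sfpi1 had none in either list. In the fibroblast and endothelial list Col1a2 (10.8 and 10.4) and Pdgfra (5.84 and 7.39) were in both, while Col1a1 (3.59, 11 reads) and Pecam1 (6.29, 20 reads) were at 12 h only. Pdgfrb, Dcn and Cdh5 had no promoter peak in either list. The part of other cell types in these values was not tested.

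Of 17 factors whose motifs the study follows, 12 had a promoter peak in both lists, with Grhl1 highest (16.0 and 15.4) and Hmga1 lowest in normoxia (5.26 and 3.90). Nfix, a nuclear factor I gene, had a peak at 12 h only with 3.57-fold enrichment and 24 reads, and Pitx1, a homeobox factor, one with 4.19-fold enrichment and 13 reads. For 4 of the 134 genes, namely Grhl2, Kdm2b, Nfia and Nfib, the strongest promoter peaks of the lists do not overlap, so their ratios compare different sites.

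**Figure D5:**
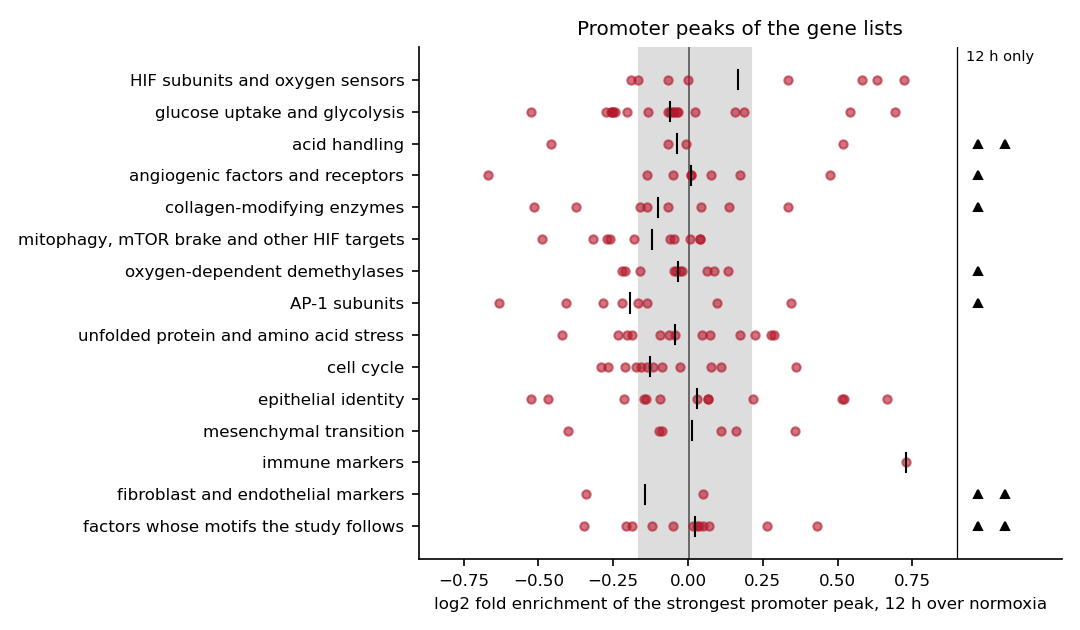
Log2 ratio of promoter fold enrichment (12 h over normoxia, x axis) for the genes of each fixed list (rows), with 1 point per gene, a black tick at the list's median and the quartiles of all genes as a grey band. Triangles at the right are the 10 genes with a promoter peak at 12 h only, which have no ratio, and the median over the 134 genes in both lists was −0.05.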

How the data were processed

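The files are peak lists from bulk ATAC-seq of 4T1 cells. As the methods and the processing notes of the submitters state, the authors aligned reads to mm9 (Bowtie2 2.1.0), removed duplicates (Picard 1.79), pooled replicates and ran MACS2 in its narrow mode. The MACS2 version is not given in the sources used here. The fold enrichment that the authors deposited is the ratio (reads + 1)/(background + 1) at a summit, and their p-value and q-value columns are −log10 values of that summit, as deposited. Lists were not scaled to each other. The lowest −log10 q was 1.30 at 12 h and 1.31 in normoxia, the level of a q of 0.05, which is looser than the threshold of the methods. The methods describe filters for mitochondrial-like and excluded regions, which were not applied here.

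Unique intervals were compared, with the summit of highest fold enrichment standing for an interval. Genes and sequence came from NCBIM37 and its GENCODE annotation. Summit reads and background were solved from the deposited fold and p-value of each summit. The recovery of reads, the overlaps and the motif words were tested on simulated data, and the placement by location was not. Named items were the 10 strongest gained and lost peaks and promoter peaks, the strong peaks with no counterpart, the 10 pairs with the largest rise and fall, the 10 strongest genes with a promoter peak in 1 list, and genes of the fixed lists with a peak in 1 list or the extreme values; other list genes were chosen after their values were seen, and some items that the rule names are not reported here. The members and lists were chosen with earlier results of these data known. Alternatives were other thresholds, overlaps, list lengths, promoter widths and motif windows. Calculations and figures were made with scipy 1.17.1, pandas 2.3.3, numpy 2.4.6 and matplotlib 3.10.9 in Python 3.11.15.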

Additional observations from a re-analysis of the deposited data

How the results depend on the processing

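No paired analysis was possible because each list pools both replicates of its group, and for the same reason no replicate could be left out. Of 52 alternatives, 18 moved a value by less than its counting interval (or a number of genes by less than 1.5 times). The other 34 moved it by more. A change of direction was possible only for the promoter difference in shared pairs, which kept its sign. All other values were shares or counts, which have no direction of their own. The gained share of the 12 h list, 34.6%, became 33.7% at a −log10 q of at least 2, 34.0% at 5, 39.7% when 50% of a peak had to be covered, 34.1% with peaks within 200 bp merged, 36.4% by summits within 250 bp, 20.8% with the 12 h list shortened to the length of the normoxia list, and 30.6% for peaks over 1 kb from any normoxia peak. The lost share, 8.93%, became 6.01% at a −log10 q of at least 5, 10.1% with 50% covered, 13.4% by summits, 18.5% with the shortened 12 h list and 7.49% for peaks over 1 kb away. Shortening drops the weakest 12 h peaks by construction. Among the 20000 strongest, the gained share of 21.8% became 23.0% with 50% covered, 16.2% by −log10 q, 30.1% and 18.2% for the 10000 and 40000 strongest, and 1.07% against the full other list, and the lost share became 16.0%, 30.1%, 17.5% and 0.065% under the last 4 of these. The promoter share of gained peaks became 9.26% at a −log10 q of at least 5, 17.7% with 5 kb promoters and 15.5% among the strongest, and that of lost peaks 7.87%, 18.9% and 29.4%. Genes with a promoter peak in normoxia only numbered 216 with 5 kb promoters and 1312 among the strongest peaks, where it exceeded the 704 genes at 12 h only. The promoter difference in shared pairs was −0.14 by −log10 q and −0.14 by reads over genome background. The HIF share of gained peaks became 26.9% with the whole peak searched (52.4% in shared peaks), 24.7% among the strongest (34.9%) and 17.6% without promoters (21.7%). The alternatives for distances over 1 kb, for promoters left out and for promoter peaks absent themselves were chosen after seeing the data. The lowest listed summits, 8 reads at 12 h and 5 in normoxia, limit what either list can hold.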

Other observations

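Gained peaks were spread over many genes, being nearest to 10347 genes, of which 384 were nearest to 10 or more. Myc, the growth-promoting transcription factor, was nearest to the most, with 32 gained of 100 nearest 12 h peaks, a share below the 34.6% of all 12 h peaks. Lphn3 followed with 31 of 72, Ets1 with 29 of 58 and Epha4 with 28 of 57. Lost peaks were nearest to 4017 genes and to no more than 7 for any gene, a number reached by Dkk2, Etl4, Rwdd3 and Tbc1d2b. These genes were chosen after their counts were seen, and long intergenic stretches give a gene more nearest peaks.

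The order of peaks along chromosomes was also recorded. With 34.6% of all 12 h peaks gained, many neighbours are gained whatever their arrangement. In the 12 h list, 11343 gained peaks (40.1%) stood alone between shared peaks, and the longest runs held 20 gained peaks in a row, at chr12:114923497-117249480, which contains the immunoglobulin heavy chain genes, and between Stim2 and Pcdh7 (chr5:55188001-60080205). The longest run of lost peaks, 7 in a row, lay in the first of these stretches (chr12:115633535-117062567).

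A few unshared peaks held many reads over a high local background. There were 7 gained peaks with 80 or more reads, led by an intronic peak nearest to Def8 with 103 reads and 1.59-fold enrichment over a background of 64.5 reads, and 3 of them lay within 1 kb of a normoxia peak. There were 8 lost peaks with 30 or more reads, led by an intronic peak near Pmepa1 (51 reads, 2.18-fold) and a peak 43795 bp from the start of Cd44, a hyaluronan receptor (40 reads, 3.67-fold), and 4 of them lay within 1 kb of a 12 h peak.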
